A study of Mus musculus with 6 samples.

Results

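The 9 complement genes other than those of C1q are described here across 6 RNA libraries of PDGFRa+ cells sorted from the scar of injured mouse hearts. They were chosen by name as components, regulators and a receptor of the complement system, and all 9 of 9 were found among the 42256 genes of the count table and passed the filter on low counts, which 15840 genes passed. PDGFRa is a receptor on the surface of cardiac fibroblasts, and the label calls the cells fibroblast-like. In 4 libraries, named Htr2b_cKO 1 to 4 here, the mice carried Htr2bfl/fl, a loxP-flanked serotonin receptor gene, with PostnMCM/+, a tamoxifen-inducible Cre at the periostin locus. In the 2 control libraries, control 1 and 2, the mice were Htr2bfl/fl without the Cre. All mice were of a mixed 129S2/C57Bl6 strain, ate tamoxifen chow from 1 week earlier and throughout, and were sampled 7 days after injury. Their ages are not given in the labels. The series addresses what loss of this receptor from myofibroblasts does after myocardial infarction. The Cre acts where Postn is active, which is in activated fibroblasts, and no control carried it, so effects of the Cre allele and of Htr2b loss cannot be told apart.

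Complement is a cascade of plasma and cell-surface proteins that tags targets for uptake, attracts leukocytes and can lyse membranes. In the classical pathway the proteases C1r and C1s are bound to C1q. There C1s cleaves C4 and C2, whose fragments form an enzyme that cleaves C3. In the alternative pathway factor B joins a C3 fragment to form another such enzyme. Most plasma complement comes from the liver, but fibroblasts also make several components, and complement is known to be deposited in infarcted heart muscle.

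Library totals ran from 28533427 to 37392496 estimated counts. The sorted cells carried fibroblast transcripts at high levels in every library, with Col1a1 between 17266 and 36309 CPM (each count divided by the scaled total of its library) and Pdgfra between 668 and 1237 CPM. Htr2b had 0, 3, 29 and 4 counts in Htr2b_cKO libraries 1 to 4, against 13 and 7 counts in control libraries 1 and 2. The library labelled Htr2b_cKO 3 was thus above both controls, at 0.876 CPM against 0.338 and 0.253 CPM. Htr2b was not called between genotypes (log2 fold change -0.106, edgeR adjusted p = 0.982). Counts this low, taken over the whole gene, cannot decide whether that library matches its label. Loss of the loxP-flanked part was not tested. Htr2b_cKO 4 was the male library, with 0.267 CPM of Xist and 139 CPM summed over 4 Y-linked genes; in the others Xist was at 385 CPM or more. Of all genes tested, 3 of 15840 (0.0189%) were called between genotypes, at an adjusted p under 0.05 in the quasi-likelihood test of edgeR.

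None of the 9 complement genes was called. The transcript levels of 7 of them had a log2 fold change below 0 and 2 above, with a median of -0.32. Without the library labelled Htr2b_cKO 3, 8 were below 0, the median was -0.20 and 0 were called. Without Htr2b_cKO 4, the male library, 7 were below 0, the median was -0.52 and 0 were called. The lean below 0 depended on the controls. Without control 1, 8 were below 0 and the median was -0.75. Without control 2, 5 were below 0 and the median was -0.0084. Over all genes tested 7922 of 15840 (50%) were below 0, and the median was -0.0001. A single gene, C2, had an unadjusted p under 0.05, in the lower direction. Of all genes tested 9.59% had such a p, 2.99% lower and 6.6% higher in Htr2b_cKO libraries. The Htr2b_cKO and control libraries overlapped in CPM for every one of the 9, while 19.6% of all genes tested were wholly separated. The smallest adjusted p among the 9 was 0.475, for C2. The controls differed between themselves by 1.42 to 3.31 times in these genes, and the 4 Htr2b_cKO libraries by 1.69 to 16.1 times.

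**Figure D1:**
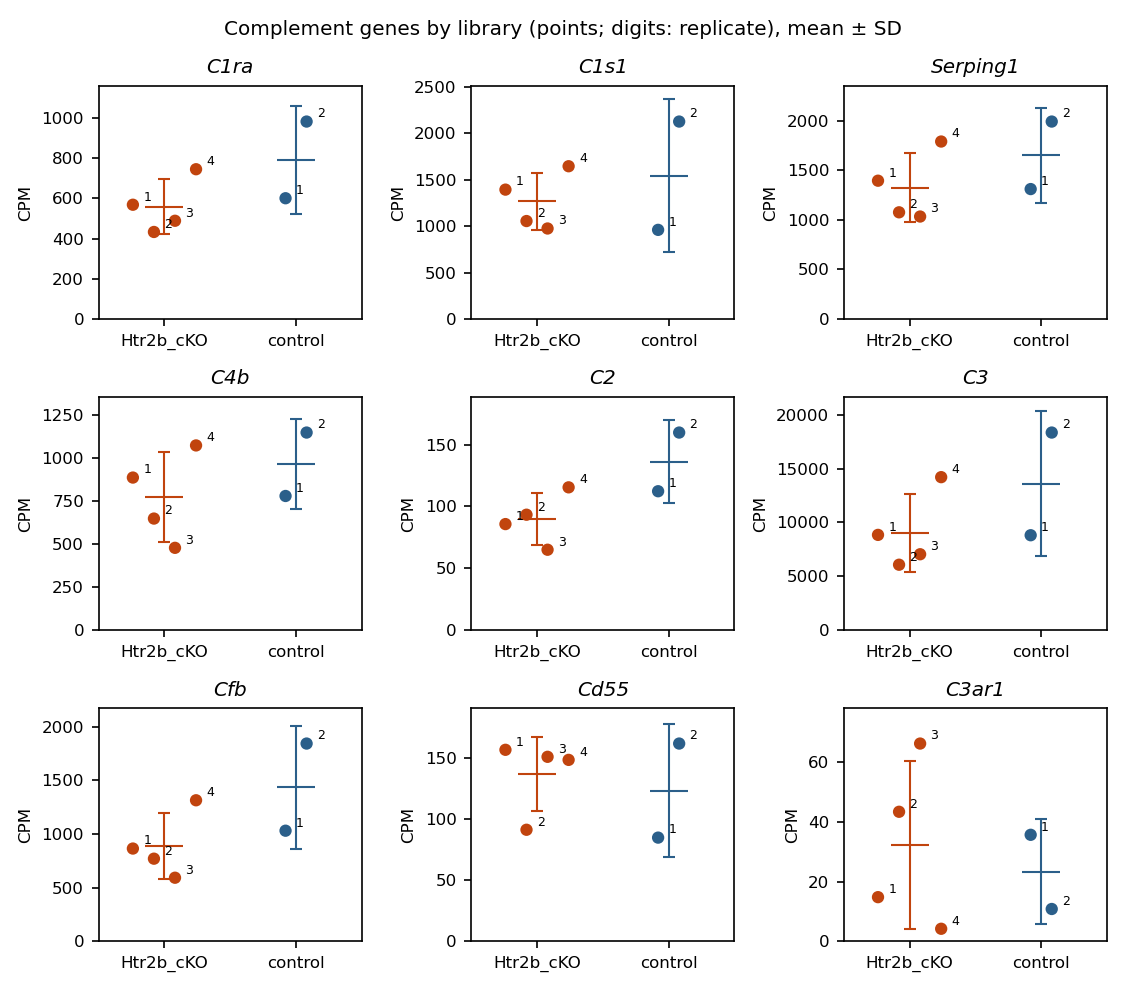
CPM (y axes, from 0) of the 9 complement genes in the 4 Htr2b_cKO libraries (red, left) and the 2 control libraries (blue, right); points are libraries with their replicate number, bars are mean ± SD. The groups overlap in every panel, and control 2 is the highest library for all but C3ar1.

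C3, whose product is the protein on which all pathways converge, was the most abundant of the 9. C3 (ENSMUSG00000024164, chr17:57203970-57228136 of mm10, minus strand) stood at 8842, 6069.9, 7044 and 14206 CPM in Htr2b_cKO libraries 1 to 4, against 8810 and 18350 CPM in the control libraries. Control 1 lay among the Htr2b_cKO libraries and control 2 above them all. Means were 9041 ± 3630 CPM in Htr2b_cKO and 13580 ± 6746 CPM in control libraries (SD, n = 4 and 2), with a log2 fold change of -0.59 (SE 0.41, edgeR adjusted p = 0.68). An interval of 2 SEs on either side reached from -1.40 to 0.23. The log2 fold change was -1.02 without control 1, 0.043 without control 2 and -0.89 without Htr2b_cKO 4. C3 alone gave 0.608 to 1.37% of all estimated counts of the Htr2b_cKO libraries and 0.906 to 1.78% in control libraries. The 9 genes together gave 1.03 to 2.03% in Htr2b_cKO and 1.41 to 2.59% in control libraries.

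Cfb encodes factor B, the protease of the alternative pathway. Cfb (ENSMUSG00000090231, chr17:34856374-34862518, minus strand) was at 864, 769, 591 and 1314 CPM in Htr2b_cKO libraries 1 to 4, against 1030.4 and 1844 CPM in control libraries 1 and 2. Of the 4 Htr2b_cKO libraries only Htr2b_cKO 4 lay above control 1. The mean was 885 ± 308 CPM in Htr2b_cKO and 1437 ± 575 CPM in control libraries (log2 fold change -0.70, SE 0.34, adjusted p = 0.573). Its interval of 2 SEs ended just below 0, at -0.02, and began at -1.38, but the unadjusted p of the edgeR test was 0.076. The fold change of Cfb was the most negative of the 9. Without control 1 it was -1.06 and without control 2 it was -0.21.

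C2, the classical counterpart of factor B, is its neighbour on chromosome 17, with 85 bases between the annotated genes. C2 (ENSMUSG00000024371, chr17:34862604-34898265, minus strand) was far less abundant, with 85.8, 93.4, 65.0 and 115 CPM in Htr2b_cKO libraries 1 to 4, against 112 and 159.8 CPM in control libraries 1 and 2. Here too Htr2b_cKO 4 alone exceeded control 1. The mean was 89.9 ± 20.9 CPM in Htr2b_cKO and 136 ± 33.6 CPM in control libraries (log2 fold change -0.60, SE 0.23, unadjusted p = 0.0315 and adjusted p = 0.475 in edgeR). The estimate was -0.83 without control 1 and -0.31 without control 2. The ratio of Cfb to C2 counts was 10.1, 8.24, 9.10 and 11.4 in Htr2b_cKO libraries 1 to 4, against 9.17 and 11.5 in the controls, so the pair kept a similar proportion.

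C4b, which encodes the C4 that C1s cleaves, lies on the same chromosome. C4b (ENSMUSG00000073418, chr17:34728380-34743882, minus strand) had 884, 647, 477 and 1071 CPM in Htr2b_cKO libraries 1 to 4, against 778 and 1145 CPM in control libraries 1 and 2. Control 1 fell in the middle of the Htr2b_cKO libraries. The log2 fold change was -0.32 (SE 0.32, adjusted p = 0.783, edgeR), and it was -0.58 without control 1 and -0.01 without control 2. Without the library labelled Htr2b_cKO 3 it was -0.14, and without Htr2b_cKO 4 it was -0.52.

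The protease genes that start the classical pathway, C1ra and C1s1, lie tail to tail on chromosome 6 with 6901 bases between them. C1ra (ENSMUSG00000055172, chr6:124512405-124523443, plus strand) had 568.5, 433, 489 and 745 CPM in Htr2b_cKO libraries 1 to 4, against 601 and 982 CPM in control libraries 1 and 2. C1s1 (ENSMUSG00000038521, chr6:124530345-124542359, minus strand) had 1394, 1056, 976 and 1646 CPM, against 961 and 2128 CPM in the controls. For C1s1 the controls were the lowest and the highest of the 6 libraries. Log2 fold changes were -0.50 for C1ra (SE 0.26, adjusted p = 0.591) and -0.28 for C1s1 (SE 0.34, adjusted p = 0.82) in the same edgeR fit. Without control 2 that of C1s1 was 0.41 and that of C1ra -0.10; without control 1 they were -0.75 and -0.82. That of C1s1 was -0.16 without the library labelled Htr2b_cKO 3 and -0.44 without Htr2b_cKO 4. C1s1 had 1.60 to 2.45 times the counts of C1ra in each of the 6 libraries.

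Serping1 encodes C1 inhibitor, which blocks C1r and C1s. Serping1 (ENSMUSG00000023224, chr2:84765387-84775444, minus strand) had 1395, 1076, 1034 and 1790.3 CPM in Htr2b_cKO libraries 1 to 4, against 1311 and 1992 CPM in control libraries 1 and 2. The inhibitor thus followed the proteases, with Htr2b_cKO 4 and control 2 highest. Its log2 fold change was -0.32 (SE 0.27, adjusted p = 0.733, edgeR). It was -0.59 without control 1 and 0.02 without control 2, -0.20 without the library labelled Htr2b_cKO 3 and -0.50 without Htr2b_cKO 4.

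Cd55 encodes a membrane protein that speeds the decay of the C3-cleaving enzymes. Cd55 (ENSMUSG00000026399, chr1:130439027-130462744, minus strand) had 157, 91.2, 151 and 148 CPM in Htr2b_cKO libraries 1 to 4, against 84.7 and 162 CPM in control libraries 1 and 2. The levels fell into a low pair, Htr2b_cKO 2 and control 1, and 4 libraries close to each other. The log2 fold change was 0.15 (SE 0.31, adjusted p = 0.904, edgeR), 0.70 without control 2 and -0.24 without control 1. It was 0.09 without Htr2b_cKO 1 and 0.31 without Htr2b_cKO 2.

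C3ar1 encodes the receptor for the C3a fragment and is well known from macrophages and other myeloid cells. C3ar1 (ENSMUSG00000040552, chr6:122847138-122856161, minus strand) had 14.8, 43.4, 66.4 and 4.13 CPM in Htr2b_cKO libraries 1 to 4, against 35.7 and 10.8 CPM in control libraries 1 and 2. It was the most variable of the 9 within the Htr2b_cKO group, with its lowest value in the library where C3 was highest in that group. The log2 fold change of 0.46 had an SE of 1.08 (adjusted p = 0.917, edgeR), and 2 SEs reached from -1.70 to 2.62. Without the library labelled Htr2b_cKO 3 it was -0.16, without control 1 it was 1.58 and without control 2 it was -0.14. Leaving out Htr2b_cKO 1, 2 or 4 gave 0.70, 0.28 or 0.83.

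**Figure D2:**
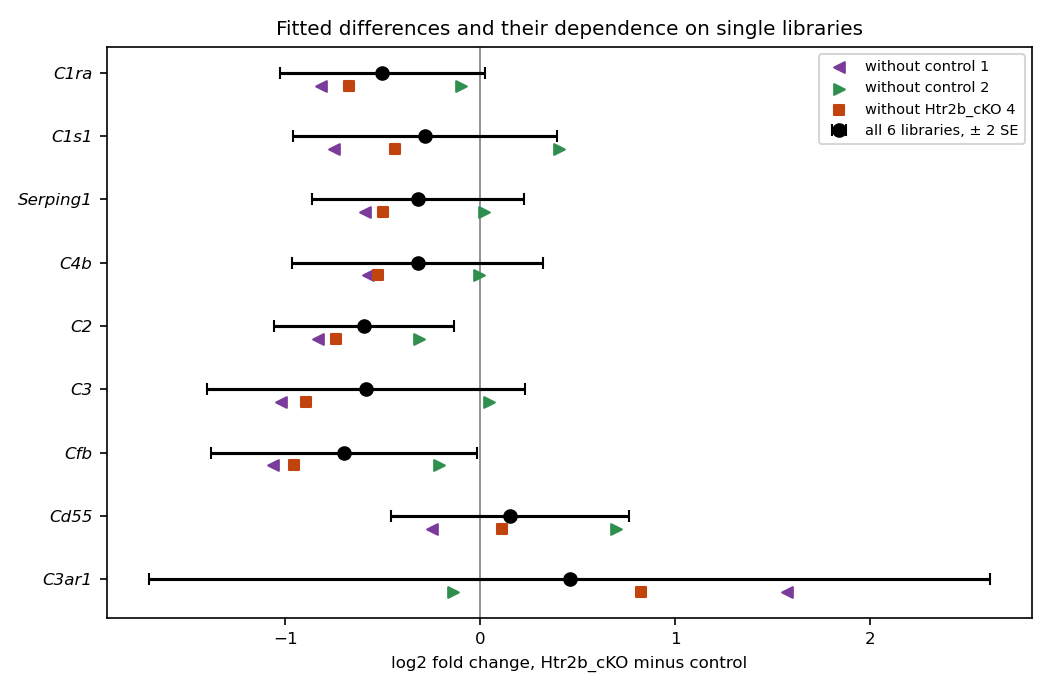
Log2 fold change of the 9 genes (x axis, Htr2b_cKO minus control; circles with ± 2 SE) and the estimate without control 1, control 2 or Htr2b_cKO 4. Leaving out control 1 or control 2 moves the estimates in opposite directions, and for C3 from -1.02 without control 1 to 0.04 without control 2.

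Levels were compared between genes after division by the length of all annotated exons. The transcripts made may be shorter, so the order of genes at close levels is approximate. Over the 6 libraries C3 averaged 2052 CPM per kb of exon, followed by Serping1 at 616, C1s1 at 435, Cfb at 378, C1ra at 213, C4b at 146, Cd55 at 27.3, C2 at 27.2 and C3ar1 at 6.78 CPM per kb. C3 exceeded 99.96% of the genes tested on this scale and C3ar1 65.7%. Ranges over libraries did not overlap between C3 and Serping1, between C4b and Cd55, or between C2 and C3ar1. Other neighbours in that order overlapped. Within single libraries Serping1 exceeded C1s1, Cfb exceeded C1ra, and C1ra exceeded C4b in 6 of 6 libraries, while C1s1 exceeded Cfb in 5 and Cd55 exceeded C2 in 3. Cfb, of the alternative pathway, thus stood between C1s1 and C1ra of the classical pathway.

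**Figure D3:**
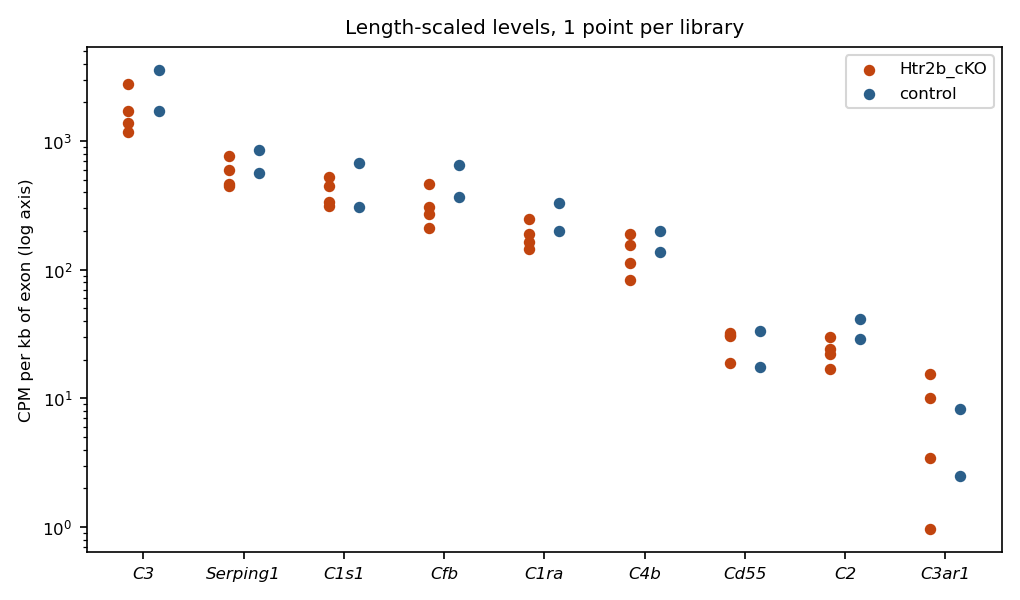
CPM per kb of exon (log axis) for the 9 genes in order of their mean, with 1 point per library, Htr2b_cKO in red and control in blue. C3 stands above the others, and C3ar1 has the widest spread.

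The difference between libraries of the same genotype was shared by 7 of the 9 genes. C1ra, C1s1, C2, C3, C4b, Cfb and Serping1 were all highest in control 2 and next highest in Htr2b_cKO 4. The 21 pairs among these 7 genes had a Pearson r of 0.72 to 0.99 in log2 CPM over the 6 libraries. This grouping was made after the values were seen and is a description. It rested in part on Htr2b_cKO 4 and control 2. Without them, r with C3 was 0.987 for C1ra and 0.89 for Serping1. For C4b it was 0.66, for Cfb 0.63, for C1s1 0.36 and for C2 0.33. Over all 6 libraries Cd55 had r of 0.01 to 0.66 with the 7, and C3ar1 had r of -0.89 to -0.62. In sorted bulk cells, fewer cells of a type and less RNA per cell cannot be told apart.

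A family of 18 relations was tested by exact two-sided permutation over the 6 libraries, and none passed after Benjamini-Hochberg adjustment. With 6 libraries there are too few orderings for a relation to pass on its own among 18, however strong. That none passed therefore does not show that a relation is absent. C3 and C1ra had the strongest relation, with r = 0.99 (exact permutation p = 0.00556, adjusted p = 0.0667) and Spearman's rho = 0.94 (exact permutation p = 0.0167, adjusted p = 0.1). Without Htr2b_cKO 4 and control 2, the libraries farthest from the median of C3, r was still 0.987. For C3 and Serping1 r was 0.98 (exact permutation p = 0.00833, adjusted p = 0.0667), rho was 0.94 (exact permutation p = 0.0167, adjusted p = 0.1) and r without those libraries 0.89. For C3 and C1s1 r was 0.90 (exact permutation p = 0.0306, adjusted p = 0.0786) and rho 0.77 (exact permutation p = 0.103, adjusted p = 0.168). That relation rested on the same libraries, since r was 0.36 without them. C3 and Pdgfra, the transcript of the sorting marker, had r = 0.85 (exact permutation p = 0.0361, adjusted p = 0.0812) and rho = 0.83 (exact permutation p = 0.0583, adjusted p = 0.15), with r = 0.73 without the library labelled Htr2b_cKO 3 and control 2. The ratio of C3 to Pdgfra counts was 8.82, 7.57, 10.5 and 12.6 in Htr2b_cKO libraries 1 to 4, against 12.0 and 14.8 in control libraries 1 and 2. Htr2b_cKO 4 lay between the controls on that ratio and the other 3 below both.

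C3ar1 moved with the summed level of macrophage markers. All 10 of 10 macrophage markers were detected in every library, and their summed level was 728, 1858, 3554 and 469.9 CPM in Htr2b_cKO libraries 1 to 4, against 2127 and 766 CPM in control libraries 1 and 2. Lyz2 had the highest mean of that list, with 163 to 2517 CPM in Htr2b_cKO libraries and 370.1 to 1328 CPM in control libraries. Cd14, next by mean, had 123, 232, 304 and 194 CPM in Htr2b_cKO libraries 1 to 4, against 307 and 217 CPM in the controls. It exceeded Lyz2 in Htr2b_cKO 4 and was lowest in Htr2b_cKO 1, so not every marker followed the order of the sum. C3ar1 and this sum had r = 0.97 (exact permutation p = 0.0111, adjusted p = 0.0667) and rho = 0.89 (exact permutation p = 0.0333, adjusted p = 0.1), and r = 0.95 without the libraries labelled Htr2b_cKO 3 and 4. C4b ran the other way against the sum, with r = -0.91 (exact permutation p = 0.0222, adjusted p = 0.0667) and rho = -0.77 (exact permutation p = 0.103, adjusted p = 0.168), and r = -0.79 without the same libraries. C3 had r = -0.74 with it (exact permutation p = 0.119, adjusted p = 0.154) and rho = -0.66 (exact permutation p = 0.175, adjusted p = 0.242), with r = -0.63 without them. C3ar1 per count of Csf1r, the receptor gene of the macrophage growth factor, still differed, at 0.175, 0.326, 0.295 and 0.102 in Htr2b_cKO libraries 1 to 4, against 0.199 and 0.174 in control libraries 1 and 2. The part of macrophage transcripts in these differences was not tested.

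**Figure D4:**
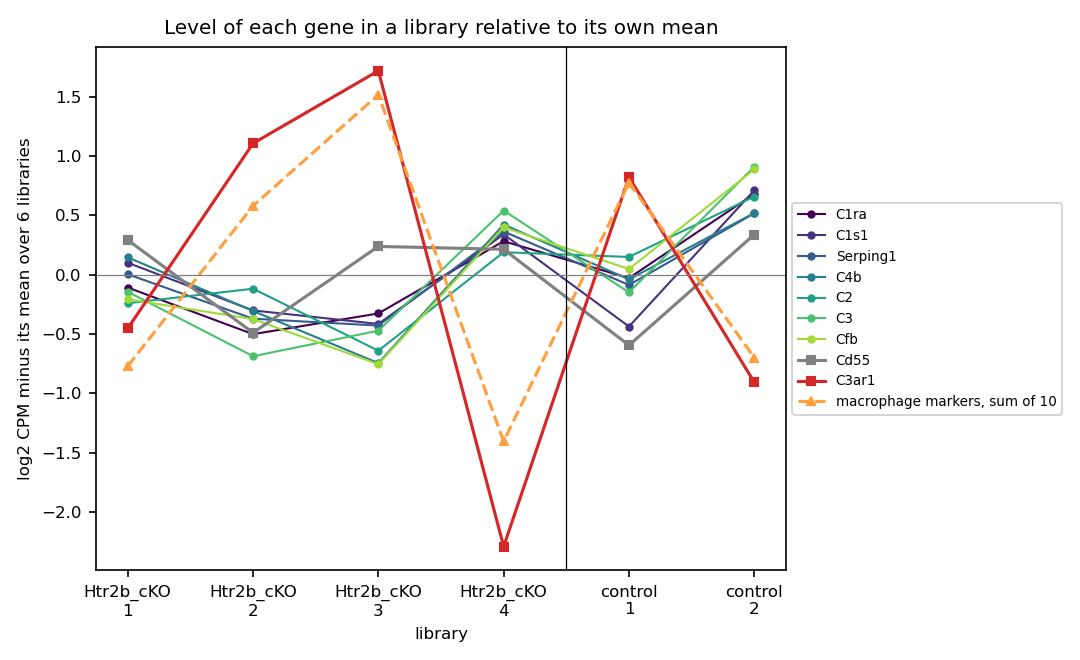
Log2 CPM of each complement gene minus its own mean over the 6 libraries (y axis), by library (x axis; Htr2b_cKO left of the vertical line, control right), with the summed macrophage markers dashed. The 7 co-varying genes peak in Htr2b_cKO 4 and control 2, where C3ar1 and the macrophage sum are lowest within their group.

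Other cell type lists were also measured. Summed endothelial markers were at 63.1 to 130.1 CPM in Htr2b_cKO and 60.7 to 227 CPM in control libraries, neutrophil markers at 27.7 to 81.0 and 36.4 to 104 CPM, lymphocyte markers at 1.39 to 9.51 and 5.86 to 18.3 CPM, mural markers at 65.1 to 88.3 and 44.2 to 92.4 CPM, and cardiomyocyte markers at 10.7 to 28.0 and 9.51 to 38.4 CPM. Epicardial and mesothelial markers summed to 214 to 269 CPM in Htr2b_cKO and 268 to 356 CPM in control libraries. Adventitial fibroblast markers summed to 1449 to 2668 CPM in Htr2b_cKO and 1818 to 1968 CPM in control libraries. No marker of any list was at 0 in all 6 libraries. The part of these cells in the complement values was not tested.

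C3 and C1s1 had r = 0.90 over the 6 libraries, but r = 0.36 without Htr2b_cKO 4 and control 2. The receptor gene C3ar1 had r of -0.81 with C3 and -0.83 with C1s1. The 250 bases before the start of C3, C1s1 and C3ar1 are given from RefSeq on GRCm38.p6, the assembly of mm10. Of the 9 genes 5 had an entry in that table, namely these 3, C1ra and Cd55. The C1ra window is not printed because most of it lies inside the gene as GENCODE annotates it. For C1s1 the window is the one at the start that GENCODE also annotates. Each is written 5′ to 3′ on the strand of the gene. Capitals mark matches on either strand to TTGCNNAA, a site for C/EBP factors, or AANNGAAA, the core bound by interferon regulatory factors.
C3: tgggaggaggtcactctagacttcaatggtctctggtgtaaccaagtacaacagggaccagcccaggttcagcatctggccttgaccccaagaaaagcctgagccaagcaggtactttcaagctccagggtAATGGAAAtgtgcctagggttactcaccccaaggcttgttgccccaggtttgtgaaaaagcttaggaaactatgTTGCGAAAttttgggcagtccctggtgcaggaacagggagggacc
C1s1: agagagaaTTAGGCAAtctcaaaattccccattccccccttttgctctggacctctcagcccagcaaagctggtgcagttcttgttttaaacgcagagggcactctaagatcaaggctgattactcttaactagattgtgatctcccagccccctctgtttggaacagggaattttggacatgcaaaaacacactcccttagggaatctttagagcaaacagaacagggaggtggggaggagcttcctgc
C3ar1: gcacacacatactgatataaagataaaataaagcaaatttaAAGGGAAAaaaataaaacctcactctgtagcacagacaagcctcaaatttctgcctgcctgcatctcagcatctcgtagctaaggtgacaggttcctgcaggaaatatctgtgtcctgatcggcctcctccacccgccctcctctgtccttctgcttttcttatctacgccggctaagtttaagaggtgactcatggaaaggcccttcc
The windows are chr17:57228137-57228386 for C3, chr6:124542360-124542609 for C1s1 and chr6:122856158-122856407 for C3ar1, all on the minus strand. The C/EBP letters began 45 bases before the start of C3 and 242 bases before that of C1s1, and the C3ar1 window held none. The interferon regulatory factor letters began 119 bases before the start of C3 and 209 bases before that of C3ar1, and the C1s1 window held none. Of 32851 such windows in the table, 9.56% held the C/EBP letters and 21.3% the interferon regulatory factor letters. TTCNNNGAA, a site for STAT factors, and the NF-kB consensus were in none of these 3 windows, and in 7.02 and 7.25% of all windows. A looser form of the NF-kB consensus, with any base at its variable positions, matched 4 times in C3, with 2 of the matches overlapping, once in C3ar1, 4 times in Cd55 and once at the second RefSeq start of C1s1, but 45.8% of all windows held it. The window of C1ra, the gene closest to C3 in pattern, held none of the motifs searched, and that of Cd55 held only the looser NF-kB form. Letters alone do not show that a factor binds, nor does their absence here show that none does.

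Genes encoding factors and receptors that can induce complement genes were described as a list. Of 11 such genes 11 were tested, 7 had a log2 fold change below 0 and 4 above, with a median of -0.22, and 0 were called. Rela, an NF-kB subunit, had 74.8, 72.3, 77.6 and 82.2 CPM in Htr2b_cKO libraries 1 to 4, against 85.1 and 101 CPM in control libraries 1 and 2. The tumour necrosis factor receptor gene Tnfrsf1a had 228, 253, 206 and 242 CPM against 269 and 295 CPM in the controls. Both had all 4 Htr2b_cKO libraries below both controls, as 8.98% of all genes tested had, and neither was called (edgeR adjusted p = 0.56 for Rela and 0.583 for Tnfrsf1a). Cebpb, a C/EBP factor, overlapped between the groups, at 259 to 449 CPM in Htr2b_cKO and 369 to 454 CPM in control libraries.

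Mouse carries close copies of C1ra, C1s1, C4b and Cd55, and reads from the shared stretches could be divided between them. C1rb, the copy of C1ra, shares 70.0% of its 31-base words with it, C4a 48.9% with C4b, C1s2 40.4% with C1s1 and Cd55b 34.4% with Cd55. The copies nevertheless took few counts. C1rb made up 2.57 to 4.02% of its pair in the 6 libraries, C1s2 0.719 to 1.14%, C4a 0.313 to 0.654% and Cd55b 0.0455 to 0.395%. With each pair summed before the fit, the log2 fold change was -0.51 for C1ra, -0.29 for C1s1, -0.32 for C4b and 0.15 for Cd55. C1rb itself stood at 22.0, 11.4, 13.9 and 30.2 CPM in Htr2b_cKO libraries 1 to 4, against 21.8 and 41.2 CPM in the controls, the order seen for C1ra apart from control 1.

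Of 43 other complement genes in 5 lists, 32 were tested, 14 above 0 and 18 below, and 0 were called. An unadjusted p under 0.05 was found for 2 in the higher direction (Masp1 and Cd59b) and for 1 in the lower (Vtn), against 6.6% and 2.99% of all genes tested. The same 3 were the only genes of the 32 with wholly separated groups, against 19.6% of all genes tested. The median log2 fold change of the 32 was -0.07. Clu, the gene of clusterin, which restrains the terminal complex, overlapped between groups at 1034 to 2483 CPM in Htr2b_cKO and 1587 to 2353 CPM in control libraries.

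Vtn, the gene of vitronectin, another inhibitor of the terminal complex, was low in all libraries. It had 3.06, 3.71, 1.36 and 2.41 CPM in Htr2b_cKO libraries 1 to 4, against 6.74 and 7.92 CPM in control libraries 1 and 2. All 4 Htr2b_cKO libraries lay below both controls, as for 8.98% of all genes tested. The log2 fold change was -1.48 (SE 0.35, unadjusted p = 0.00271, adjusted p = 0.326, edgeR). Masp1, a protease gene of the lectin pathway, had 4.06, 2.80, 2.54 and 4.46 CPM in Htr2b_cKO libraries against 1.74 and 1.12 CPM in controls (log2 fold change 1.24, SE 0.41, adjusted p = 0.415). Cd59b, whose product blocks the terminal complex, had 0.534 to 0.891 CPM in Htr2b_cKO libraries and 0.145 to 0.208 CPM in controls (adjusted p = 0.427, edgeR). For Masp1 and Cd59b all 4 Htr2b_cKO libraries lay above both controls, as for 10.6% of all genes tested. The separation of Cd59b rests on few counts, with 8 and 4 in control libraries 1 and 2.

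The C1q gene C1qb was ordered over the libraries like the macrophage sum, and several other complement genes shared its lowest library, Htr2b_cKO 4. C1qb, a chain of C1q, was at 103, 251, 455 and 32.3 CPM in Htr2b_cKO libraries 1 to 4, against 330.1 and 106 CPM in control libraries 1 and 2, which is the order of C3ar1 among the Htr2b_cKO libraries. Properdin, encoded by Cfp, had 31.5, 60.2, 55.9 and 10.8 CPM in Htr2b_cKO libraries against 81.5 and 29.6 CPM in controls. The complement receptor subunit genes Itgam and Itgb2 were also lowest in Htr2b_cKO 4. The library labelled Htr2b_cKO 3, highest for the macrophage sum, was not the highest for Cfp, Itgam or Itgb2. The terminal component genes were scarce except C7, at 22.7, 15.2, 37.8 and 44.4 CPM in Htr2b_cKO libraries and 25.1 and 11.9 CPM in controls. Cfd, the gene of factor D, had 4, 38, 0 and 13 counts in Htr2b_cKO libraries 1 to 4, against 2 and 0 counts in control libraries 1 and 2. Its fitted fold change, counted above 0, rests on these few counts and is not given as a value. C8a, C8b and C9 had too few counts to be tested.

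**Figure D5:**
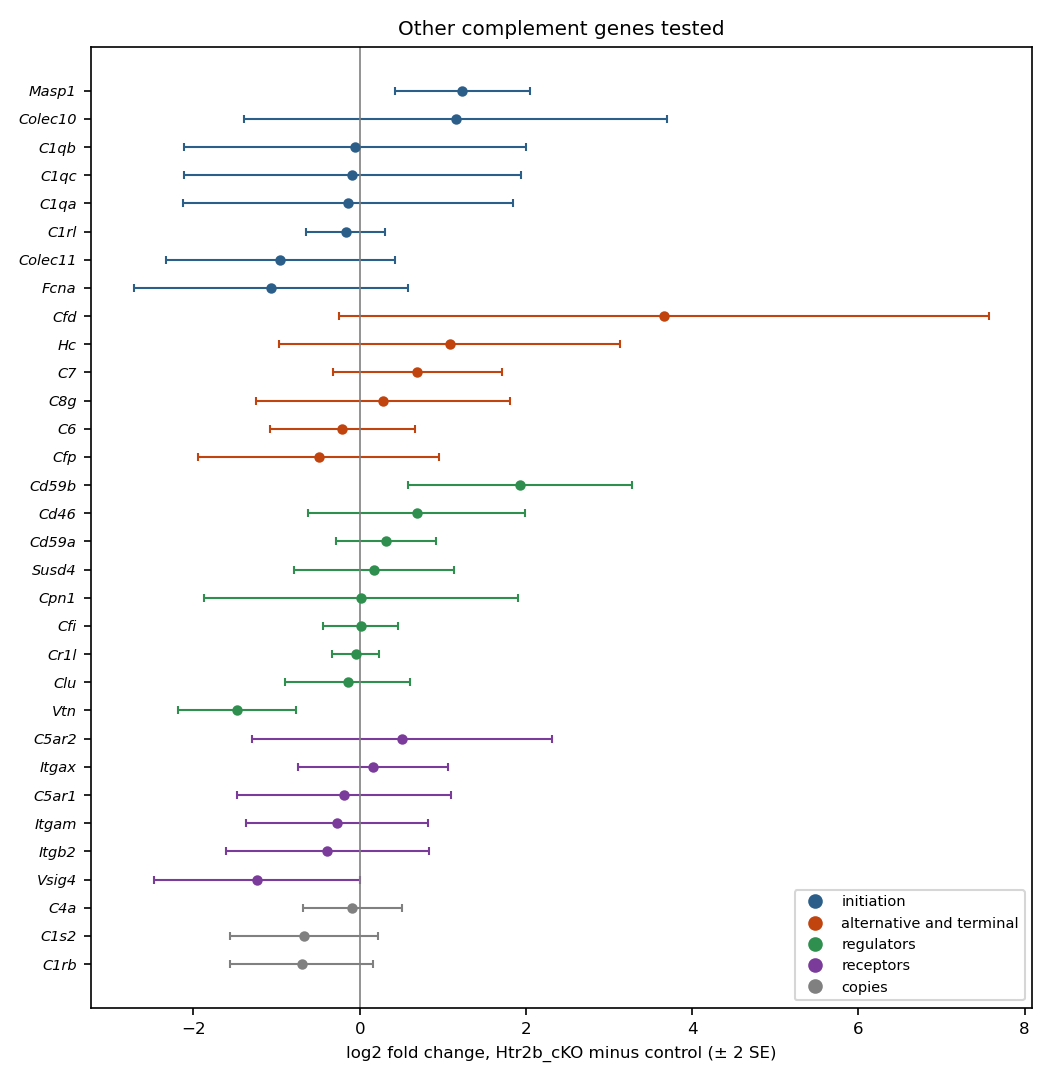
Log2 fold change (x axis, Htr2b_cKO minus control, ± 2 SE) of the 32 other complement genes tested, grouped by role. The widest interval is that of Cfd, which had few counts; the intervals of Masp1, Cd59b and Vtn exclude 0, and none of the 32 was called after adjustment.

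For each of the 9 genes, the genes with the most similar pattern over the 6 libraries were sought among 9660 protein-coding genes. C3 and C1ra were each other's most similar gene (r = 0.99), followed by Serpina3i for C3 and Asap3 for C1ra. Gas1 and Man2a2 were most similar to C1s1, Isyna1 and Abhd14a to C2, Slc16a1 and Slc38a1 to C4b, Cap2 and Atg2a to Cfb, Ficd and Cxcl5 to Serping1, Rab22a and Abi3bp to Cd55, and Lair1 and Ptafr to C3ar1. All these r values were 0.968 or more, picked as the highest among all candidates over 6 libraries, and they carry no test. Cxcl5 was at 249.9, 135, 124 and 362 CPM in Htr2b_cKO libraries 1 to 4, against 220.1 and 401 CPM in control libraries 1 and 2, the order of Serping1. Lair1 was at 4.70, 12.0, 17.0 and 2.02 CPM in Htr2b_cKO libraries, against 9.68 and 4.34 CPM in controls, the order of C3ar1.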

How the data were processed

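RNA of sorted PDGFRa+ cells was made into 6 strand-specific libraries, per the labels' protocols. The table the authors deposited gives estimated counts per Ensembl gene, already rounded to whole numbers, and these entered the fits unaltered. A second deposited set of columns, a normalized signal in which counts are divided by factors that differ between genes and libraries, was used only for an alternative. DRAGEN, DESeq2 and mm10 are named per the submitters' processing notes; counter settings: not given in the sources used here. Symbols, positions and exon lengths came from GENCODE M21 on the same build, which held all 42256 identifiers.

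Groups came from the genotype label, and replicates were numbered in accession order. Genotypes were compared with edgeR 4.0.16 (R 4.3.3) by its two-sided quasi-likelihood test, with genotype as the only term, TMM scaling, filterByExpr and robust dispersion without the legacy estimate, adjusted by Benjamini-Hochberg over the 15840 genes kept. CPM uses TMM-scaled totals; CPM per kb divides by the union of annotated exons. Alternatives used limma 3.58.1 and DESeq2 1.42.0, where 1 was added to the authors' signal before log2. The code was tested on simulated data. The design text counts as many animals per genotype as there are libraries, so a library was read as 1 animal. The 9 genes and all gene lists were chosen with earlier results of these data known. The result of 1 gene of the complement lists is not reported here, and it is left out of the list counts. The NF-kB motif was first searched in its looser form; the stricter consensus and the interferon regulatory factor core were put in after those matches were seen, and both NF-kB searches are given. Genes named beyond the 9 were the close copies, in each list the called or else the 2 genes of smallest p and the 2 of highest level, and the 2 most similar genes for each of the 9, of mean log2 CPM of at least 3; some that this took are not described, and Col1a1, Xist, Csf1r, C8a, C8b and C9 were chosen outside it.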

Additional observations from a re-analysis of the deposited data

Results flagged for a closer look

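Among the 4 Htr2b_cKO libraries, the lowest Cd55 level stood apart from the others. Htr2b_cKO 2 had 91.2 CPM, and the other 3 had 148 to 157 CPM; the gap to the nearest library made up 0.874 of the range of the group, above the critical value of Dixon's test for 4 values. Control 1 was equally low, at 84.7 CPM. Chance sets off this rule in about 1 of 20 groups, and 9 genes were examined.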

How the results depend on the processing

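Under 17 alternatives the 9 genes gave 153 fold changes, of which 0 were called (adjusted p of 0.395 to 0.999) and 145 kept the direction of the main fit. Without control 2 the log2 fold change turned for C1s1 (0.41), C3 (0.043), Serping1 (0.021) and C3ar1 (-0.14). Without control 1 it turned for Cd55 (-0.24), and without the library labelled Htr2b_cKO 3 for C3ar1 (-0.16). limma voom gave -0.0057 for C3ar1, and the correction for GC content and exon length -0.031 for Cd55; the cause was not tested. With 1 library left out, C3 ran from -1.02 to 0.043, Serping1 from -0.59 to 0.021, C3ar1 from -0.16 to 1.58 and Cd55 from -0.24 to 0.70. The median of the 9 was -0.32 and ran from -0.75 without control 1 to -0.0084 without control 2 when 1 library was left out. It was -0.42 without both libraries labelled Htr2b_cKO 3 and 4. Over all genes the number called was 3 in the main fit, 105 with DESeq2, 5 without the filter, 1 with at least 10 counts in every library, 5 without both libraries labelled Htr2b_cKO 3 and 4, and 1 (without control 1) to 8 (without Htr2b_cKO 4) when 1 library was left out. The legacy dispersion, added after seeing the data, called 2. Where control 1 or control 2 was left out, the lone control was assumed to vary like the other group. No paired analysis was possible because the labels give no replicate numbers shared by the groups. With 2 controls precision is low, and C3ar1, with the largest SE, is the least precise of the 9.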
